A study of Mus musculus with 11 samples.

Results

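The genes described here are Trp53, which encodes the transcription factor p53, its E3 ligase gene Mdm2, and the genes Cdkn1a, Ccng1, Phlda3, Trp53inp1, Bax, Bbc3 and Pmaip1. They were chosen by name, as 9 of the 33188 genes in the joined count tables, and all 9 were detected in every library and passed the filter on low counts. Poly-A RNA of whole mouse testes at postnatal day 5 (P5) was sequenced to follow retrotransposons in germ cells that lack the DNA methyltransferase DNMT3C, the transcription factor NRF1, or both. The 11 libraries were 2 of wild-type (WT), 3 of Dnmt3C KO/KO (Dnmt3C KO), 3 of the germ cell knockout of Nrf1 (Nrf1 cKO) and 3 of the double knockout (dKO). All lines were bred onto C57Bl6/J. Nrf1 cKO mice carried 1 floxed and 1 deleted Nrf1 allele with Ddx4-Cre (Vasa-Cre), which is active in germ cells, so somatic cells of the testis kept the floxed allele. The dKO mice carried these alleles together with Dnmt3C KO/KO. The sample titles write the Nrf1 genotype as KO/KO. No source names the animal behind each replicate number, so the p-values measure the spread between these libraries.

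p53 is held at a low level by MDM2, which binds it and marks it for degradation. DNA damage and other stress free p53, which then activates genes for cell cycle arrest, among them Cdkn1a, and genes of the mitochondrial route of apoptosis, among them Bax, Bbc3 and Pmaip1. Mdm2 is itself a p53 target, which closes a negative feedback loop, and male germ cells are known to be removed by apoptosis in the young testis.

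p53 binds pairs of a short decamer, and the promoters of 7 of the 9 genes could be searched for it in RefSeq windows of GRCm38.p6 that run from 250 bases before to 50 bases after a transcription start. Pmaip1 and Trp53inp1 were not matched. At least 1 copy of the consensus decamer of p53 was found in 5 of the 10 windows of these genes, against 8.36% of all 32851 windows. Its consensus is palindromic, so a match reads on both strands. The NRF1 core TGCGCA, also palindromic, was in 0 of the 10 windows, against 7.76% of all windows. A match is a description of the letters and not a measured site. The 9 genes were chosen as p53 pathway and apoptosis genes, so these shares test nothing about them. Of the genes with a match, all but Cdkn1a hold 1 decamer in the window and not a pair. The stretches around the decamers are shown for Trp53, Cdkn1a, Mdm2, Bax and Ccng1, which were picked because they hold a match. Each is read 5′ to 3′ on the strand of its gene, with the decamer in capitals. The Trp53 stretch is chr11:69580259-69580318 on the plus strand, and its decamer begins 75 bases before the start. The Cdkn1a stretch, chr17:29090881-29090962 on the plus strand, holds 2 decamers, which begin 73 and 51 bases before the start. Those of Mdm2 (chr10:117710910-117710969, minus strand), Bax (chr7:45467065-45467124, minus strand) and Ccng1 (chr11:40755437-40755496, minus strand) begin 186, 201 and 185 bases before the start.
Trp53: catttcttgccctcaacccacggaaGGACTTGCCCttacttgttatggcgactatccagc
Cdkn1a: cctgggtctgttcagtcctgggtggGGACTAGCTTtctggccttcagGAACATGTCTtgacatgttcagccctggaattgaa
Mdm2: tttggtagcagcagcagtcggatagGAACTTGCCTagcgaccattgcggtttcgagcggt
Bax: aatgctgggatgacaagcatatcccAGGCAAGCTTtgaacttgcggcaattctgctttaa
Ccng1: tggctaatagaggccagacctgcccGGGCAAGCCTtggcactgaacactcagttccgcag

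Total counts ran from 26063590 to 39365841 (median 33862160) over the libraries, and mitochondrial genes took between 2.13% and 3.99% of it. The counts of the targeted genes did not separate the genotypes. Nrf1 had 57.1 ± 0.829 CPM, the counts scaled to library size, in WT (SD, n = 2), 50.5 ± 6.08 in Dnmt3C KO, 55.4 ± 3.03 in Nrf1 cKO and 59.5 ± 2.13 in dKO (SD, n = 3 each). Dnmt3c had 4.48 ± 0.510 CPM in WT (SD, n = 2) and 3.81 ± 0.780, 4.25 ± 0.522 and 4.26 ± 0.735 in Dnmt3C KO, Nrf1 cKO and dKO (SD, n = 3 each). These are counts over whole genes and over all cells of the testis, so in these data the genotypes rest on the labels. The paper checked the genotypes by PCR and found no NRF1 staining in germ cells of Nrf1 cKO and dKO. Markers of Sertoli cells averaged 7.21 ± 0.35 log2 CPM in WT and germ cell markers 3.6 ± 0.30 (SD, n = 2), in tissue that the cell type label gives as spermatogonia and somatic cells and the sample titles as germ cells.

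Per kilobase of exon, the 9 genes spanned a wide range of levels. Bax stood highest, with a median over the 11 libraries of 30.8 CPM per kb (range 24.1 to 35.2), next to Phlda3 at 29.2 (22.7 to 35) and Trp53 at 26.8 (20.8 to 31.7), whose ranges overlapped. Ccng1 was at 17.4 CPM per kb (12.9 to 21.3), and only the edge of its range met that of Trp53. Mdm2 at 10.2 CPM per kb (8.02 to 12.5) overlapped neither Ccng1 above it nor Trp53inp1 below it, which was at 5.02 (3.34 to 5.78). The lowest were Bbc3 at 2.56 CPM per kb (1.8 to 3.47), Pmaip1 at 2.22 (1.21 to 3.77) and Cdkn1a at 1.4 (1.02 to 2.66), whose ranges overlapped one another. Among 21618 genes past the filter that had an exonic length, Bax, Phlda3 and Trp53 lay at the 92.2, 91.6 and 90.8 percentile of CPM per kb. Bbc3, Pmaip1 and Cdkn1a lay at the 46.0, 43.7 and 37.7 percentile. Their read counts were still between 86 and 349 in every library. Over the libraries, the highest CPM of a gene was between 1.46 times (Bax) and 3.10 times (Pmaip1) its lowest.

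**Figure D1:**
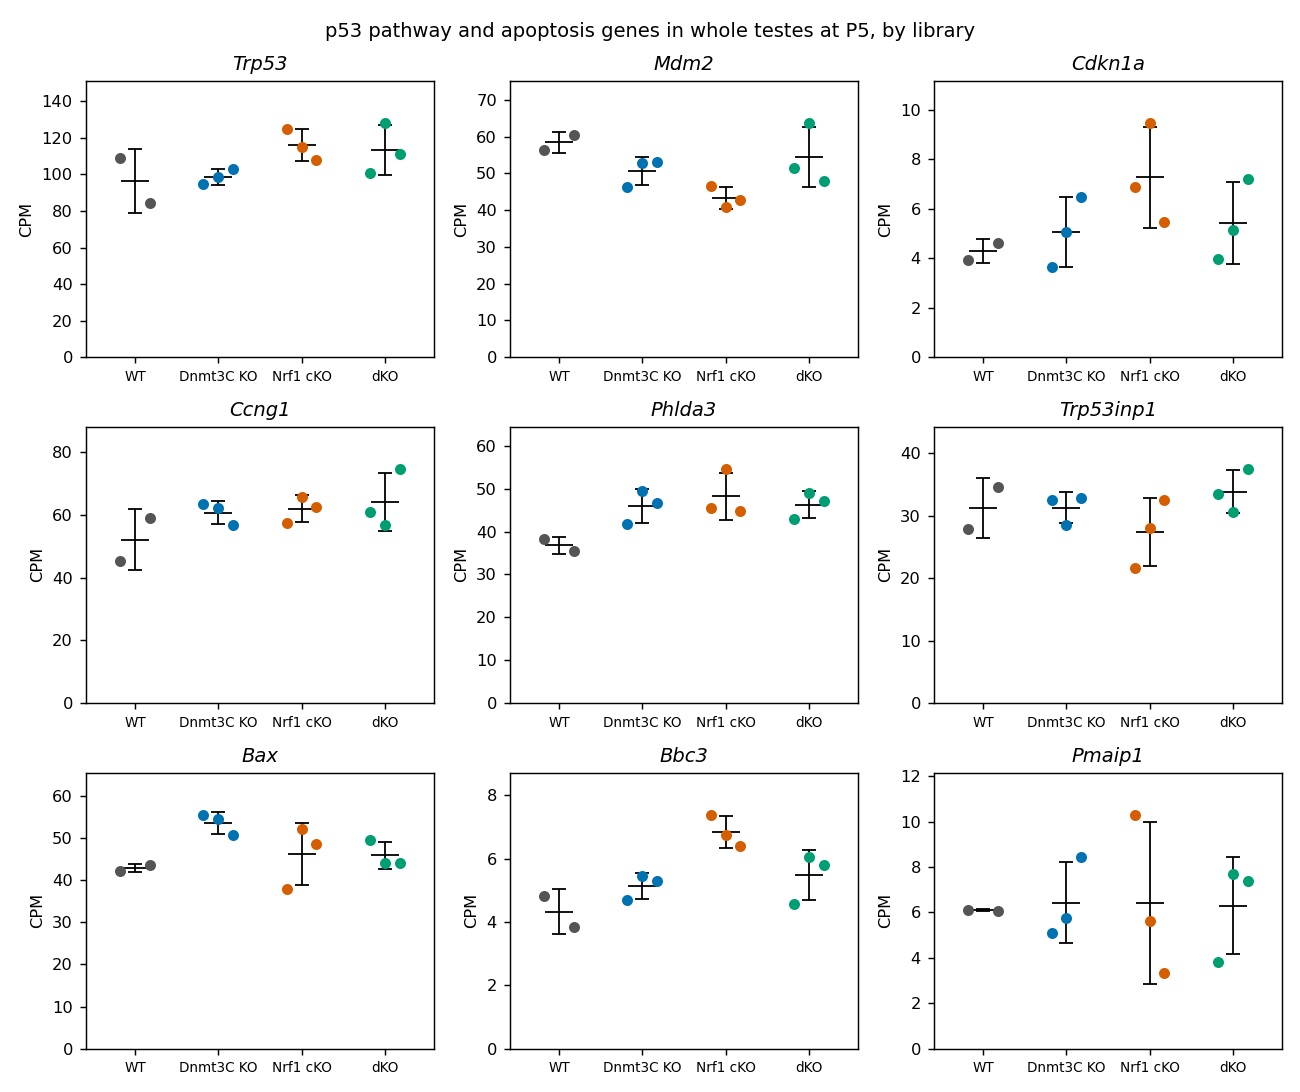
CPM of each of the 9 genes (vertical axes, linear, from 0) in each library, by genotype; points are libraries, the long bar is the mean and the whiskers are the SD (n = 2 for WT, 3 for each mutant). For Trp53 and Ccng1 each mutant genotype overlaps WT, Mdm2 has its lowest mean in Nrf1 cKO (40.8 to 46.7 CPM), and Pmaip1 spreads from 3.32 to 10.3 CPM within Nrf1 cKO alone.

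Trp53 (ENSMUSG00000059552.13, chr11:69580359-69591873 in GRCm38, plus strand) differed little between genotypes beside its spread, and each mutant genotype overlapped WT. It had 109 and 84.2 CPM in WT, 94.5, 98.4 and 103 in Dnmt3C KO, 125, 115 and 108 in the Nrf1 cKO libraries and 101, 128 and 111 in those of dKO. The 2 WT libraries differed from each other by more than the means of the genotypes did. A processed copy of Trp53 on chromosome 17, Trp53-ps, had at most 31 counts in a library, so reads shared with it are few beside those of Trp53. Whether p53 protein changed was not measured by these libraries.

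Mdm2 (ENSMUSG00000020184.15, chr10:117688875-117710758, minus strand) had 56.5 and 60.4 CPM in WT, 46.4, 52.8 and 53 in Dnmt3C KO, 46.7, 40.8 and 42.7 in the Nrf1 cKO libraries and 51.6, 63.7 and 48.0 in those of dKO. All 3 Dnmt3C KO and all 3 Nrf1 cKO libraries lay below both WT libraries, and the dKO libraries lay above those of Nrf1 cKO and spanned the WT level. Groups without overlap, in either direction, made up 21.2% of all features between Dnmt3C KO and WT and 7.45% between dKO and Nrf1 cKO. Between Nrf1 cKO and WT, 4 of the 9 genes did not overlap, Mdm2 below WT and Cdkn1a, Bbc3 and Phlda3 above it, against 21.6% of all features.

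Among the genes that slow the cell cycle or limit survival signals, Cdkn1a (ENSMUSG00000023067.14, chr17:29090976-29100727, plus strand), which encodes the CDK inhibitor p21, had 3.93 and 4.63 CPM in WT. It had 3.63, 5.05 and 6.48 in Dnmt3C KO, 6.89, 9.45 and 5.44 in the Nrf1 cKO libraries and 3.95, 5.13 and 7.19 in those of dKO. The Nrf1 cKO libraries lay above WT but overlapped those of Dnmt3C KO and dKO. Between Nrf1 cKO and WT, 21.6% of all features had groups without overlap. An unspliced model on the other strand, AC167363.2, overlaps Cdkn1a, and the counting used strand. Ccng1 (ENSMUSG00000020326.7, chr11:40748552-40755311, minus strand), a cyclin G gene, had 45.2 and 59.0 CPM in WT, 63.4, 62.2 and 56.7 in Dnmt3C KO, 57.4, 65.9 and 62.6 in the Nrf1 cKO libraries and 61.0, 56.8 and 74.7 in those of dKO. WT replicate 1 was its lowest library, and all 4 genotypes overlapped.

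Phlda3 (ENSMUSG00000041801.5, chr1:135766119-135769136, plus strand), whose pleckstrin homology protein inhibits AKT, had 38.2 and 35.4 CPM in WT. It had 41.7, 49.5 and 46.7 in Dnmt3C KO, 45.5, 54.6 and 44.7 in the Nrf1 cKO libraries and 42.9, 48.9 and 47.1 in those of dKO. Each of the 9 mutant libraries lay above both WT libraries, and the 3 mutant genotypes overlapped one another. The share of all features with that pattern was not counted. Without overlap with WT, in either direction, were 21.2% of features for Dnmt3C KO, 21.6% for Nrf1 cKO and 13.5% for dKO. Trp53inp1 (ENSMUSG00000028211.11, chr4:11156431-11174379, plus strand), a stress-induced p53 target, had 27.9 and 34.6 CPM in WT, 32.5, 28.5 and 32.9 in Dnmt3C KO, 21.6, 28.1 and 32.5 in the Nrf1 cKO libraries and 33.5, 30.6 and 37.5 in those of dKO, with overlap throughout.

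Of the 3 apoptosis effectors, Bax (ENSMUSG00000003873.11, chr7:45461697-45466898, minus strand), which encodes a pore-forming protein of the outer mitochondrial membrane, had 42.1 and 43.5 CPM in WT. It had 55.5, 54.4 and 50.7 in Dnmt3C KO, 38.0, 52.2 and 48.6 in the Nrf1 cKO libraries and 49.5, 44.1 and 44.0 in those of dKO. The Dnmt3C KO libraries lay above WT and, except for Nrf1 cKO replicate 2, above every other library. Between Dnmt3C KO and WT, 21.2% of all features had groups without overlap. A same-strand protein-coding model, Gm45808, overlaps Bax and averaged between 14.4 CPM (WT) and 18 CPM (Dnmt3C KO), so how the counting split their shared reads is uncertain.

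Bbc3 (ENSMUSG00000002083.13, chr7:16308393-16318205, plus strand), which encodes the BH3-only protein PUMA, had 4.82 and 3.83 CPM in WT, 4.68, 5.44 and 5.30 in Dnmt3C KO, 7.38, 6.74 and 6.40 in the Nrf1 cKO libraries and 4.58, 6.06 and 5.80 in those of dKO. Its 3 Nrf1 cKO libraries were the highest of the 11, and the share of all features with such an order was not counted. Pmaip1 (ENSMUSG00000024521.8, chr18:66458533-66465565, plus strand), which encodes the BH3-only protein NOXA, had 6.13 and 6.07 CPM in WT. It had 5.08, 5.77 and 8.45 in Dnmt3C KO, 10.3, 5.63 and 3.32 in the Nrf1 cKO libraries and 3.84, 7.68 and 7.37 in those of dKO. Nrf1 cKO held both its highest and its lowest library, and its SD there was 55.4% of the mean.

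The deletion of Nrf1 was first compared over both Dnmt3C states, as 6 libraries with Nrf1 deleted in germ cells against 5 with Nrf1 intact. None of the 9 genes passed an adjusted p of 0.01 (edgeR's quasi-likelihood test, Benjamini-Hochberg over all features), and the smallest adjusted p among them was 0.553. The test called 1 of 22594 features, 0.00443%. At an unadjusted p under 0.05 stood 3 of the 9, all higher, where 8.53% of all features did. The DESeq2 Wald test also called 0 of the 9 and put 3 at an unadjusted p under 0.05. None of the 9 had groups that did not overlap, against 0.748% of all features. Bbc3 was higher by 0.38 on the log2 scale (standard error 0.15, 95% interval 0.05 to 0.70, adjusted p = 0.553), Trp53 by 0.23 (0.10, 0.02 to 0.44, adjusted p = 0.573) and Phlda3 by 0.20 (0.09, 0.00 to 0.39, adjusted p = 0.578).

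The other 6 genes had intervals that include no difference. Cdkn1a, the least precise with Pmaip1, was at 0.43 (95% interval -0.05 to 0.91), Ccng1 at 0.16 (-0.06 to 0.39) and Pmaip1 at 0.02 (-0.58 to 0.62). Below 0 stood Mdm2 at -0.17 (-0.36 to 0.03), Bax at -0.06 (-0.27 to 0.15) and Trp53inp1 at -0.04 (-0.30 to 0.22). No interval reached beyond a 1.88-fold difference in either direction. These intervals are for RNA of the whole testis, while Nrf1 was deleted in germ cells only. Differences within germ cells were not measured apart, so the intervals set no bound on them. The median over the 9 was 0.16, against 0.00 over all features, 0.07 without WT replicate 1 and 0.10 without dKO replicate 3. Trp53 was at 0.14 without WT replicate 2. The count of 3 rested on single libraries: it was 0 without Dnmt3C KO replicate 1 or dKO replicate 3, 1 without WT replicate 2, Nrf1 cKO replicate 1, Nrf1 cKO replicate 2 or dKO replicate 2, and 4 without Nrf1 cKO replicate 3 or dKO replicate 1.

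**Figure D2:**
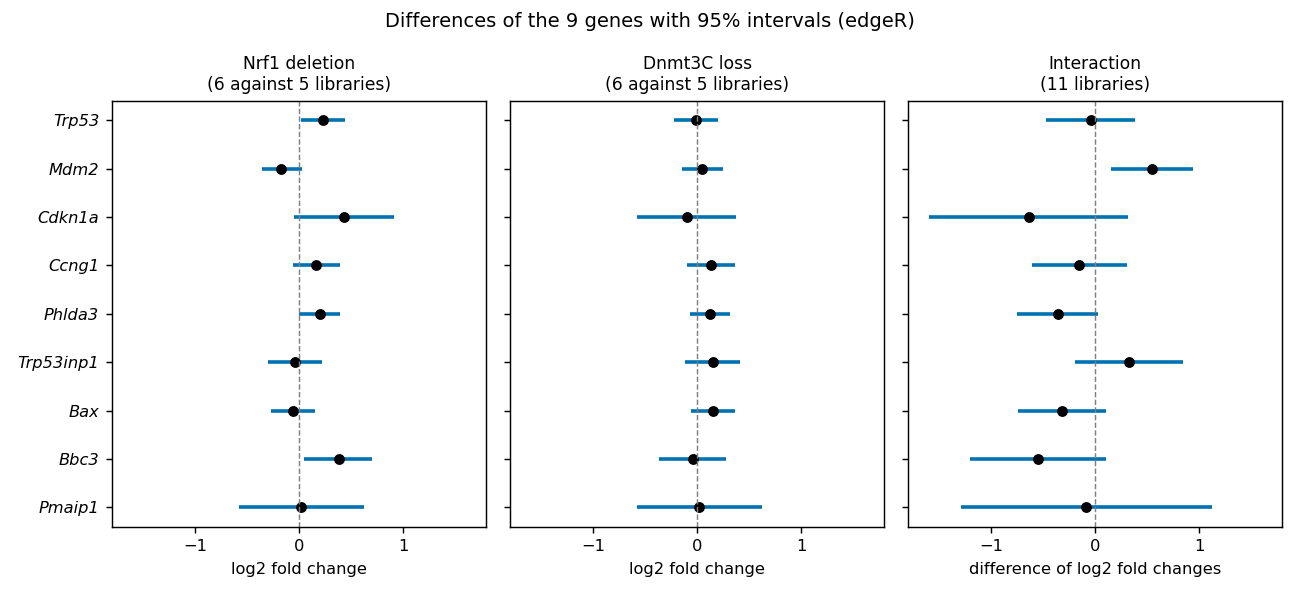
Log2 fold change of each of the 9 genes (points) with its 95% interval (bars) for Nrf1 deletion over both Dnmt3C states, for Dnmt3C loss over both Nrf1 states, and for the interaction, the difference of the 2 effects of Dnmt3C loss. Cdkn1a and Pmaip1 have the widest intervals, and Mdm2 in the interaction (0.15 to 0.94) lies farthest from 0 relative to its error.

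Germ cell markers were lower in the same libraries. Their score, the mean log2 CPM of 12 markers, was 3.6 ± 0.30 in WT (SD, n = 2), 3.84 ± 0.39 in Dnmt3C KO, 2.45 ± 0.39 in Nrf1 cKO and 2.98 ± 0.64 in dKO (SD, n = 3 each). With Nrf1 deleted, 10 of the 12 were lower at an unadjusted p under 0.05, with a median of -1.05, though none passed the adjusted threshold. Their summed level ran from 287 to 331 CPM in WT, 281 to 488 in Dnmt3C KO, 89.5 to 177 in Nrf1 cKO and 117 to 295 in dKO, and neither Ddx4 nor Dazl was at 0 in a library. Ddx4, the RNA helicase gene whose promoter drives the Cre, had 65.1 and 60.5 CPM in WT, 84.1, 55.9 and 72.2 in Dnmt3C KO, 39.4, 17.4 and 19.7 in the Nrf1 cKO libraries and 55.6, 52.7 and 26.9 in those of dKO. Sertoli cell markers were all 8 above 0, with a median of 0.42, and 3 of them were at an unadjusted p under 0.05. All 5 endothelial markers were above 0 (median 0.17) and all 5 red blood cell markers below it (-0.53), none at an unadjusted p under 0.05. Markers of Leydig cells, peritubular cells and macrophages lay on both sides. In bulk RNA, fewer cells of a type and less RNA per cell cannot be told apart. By western blot at P5 the paper saw less TRA98, a germ cell marker, in Nrf1 cKO and dKO, and proposes germ cell loss.

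The mean of the 9 genes differed less between genotypes than that of the germ cell markers, a difference that was not tested. The marker list was chosen with earlier results of these data known. The mean log2 CPM of the 9 genes was 4.51 ± 0.02 in WT (SD, n = 2), 4.64 ± 0.11 in Dnmt3C KO, 4.70 ± 0.11 in Nrf1 cKO and 4.68 ± 0.15 in dKO (SD, n = 3 each). Opposite differences cancel in such a mean: between Nrf1 cKO and WT, Cdkn1a was at 0.75 and Mdm2 at -0.45. With the germ cell score as a covariate, 0 of the 9 were at an unadjusted p under 0.05 for Nrf1 deletion and their median was -0.09. In that fit Trp53 was at 0.30, Bbc3 at 0.32 and Phlda3 at 0.07, while Cdkn1a turned to -0.18 and Ccng1 to -0.09 (edgeR adjusted p of 0.992 for Trp53, Bbc3, Cdkn1a and Ccng1, and 0.996 for Phlda3). The score itself differs with Nrf1 deletion, so such a fit has less information on the deletion.

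**Figure D3:**
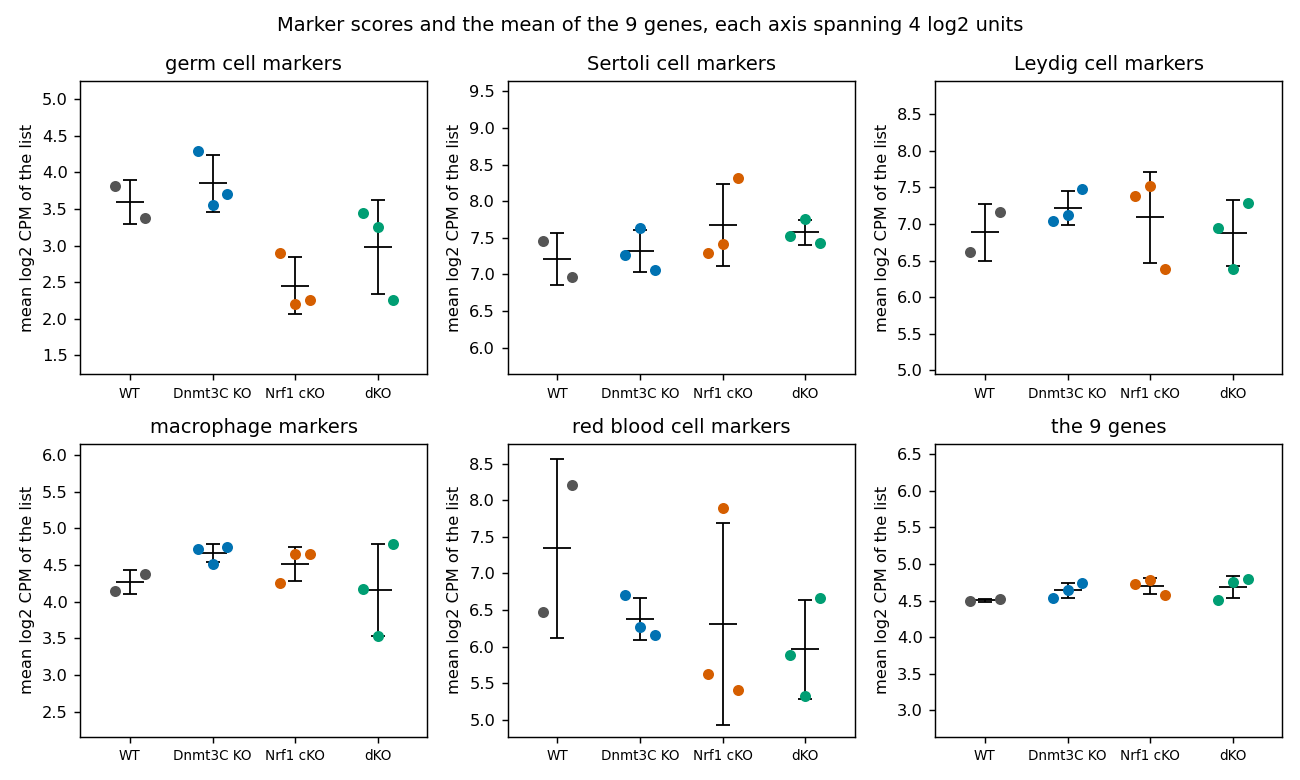
Mean log2 CPM of 5 marker lists and of the 9 genes in each library, by genotype, on axes that each span 4 log2 units; points are libraries, bars the mean and whiskers the SD (n = 2 for WT, 3 for each mutant). The germ cell score is 3.38 to 4.29 with Nrf1 intact and 2.2 to 3.44 with Nrf1 deleted, while the mean of the 9 genes stays between 4.49 and 4.79.

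Between Nrf1 cKO and WT alone, 0 of the 9 genes were called (0% of 21296 features, smallest adjusted p among the 9 = 0.833), and 3 were at an unadjusted p under 0.05, against 5.75% of all features. DESeq2 called 0 and also had 3. With their own DESeq2 test the authors report protein-coding genes that differ between these genotypes, more of them lower than higher in Nrf1 cKO. The lack of calls here is thus no evidence that the transcriptome was unchanged. Cdkn1a was at 0.75 (standard error 0.32, 95% interval 0.04 to 1.46, adjusted p = 0.852) and Bbc3 at 0.64 (0.28, 0.01 to 1.27, adjusted p = 0.861), both higher. Mdm2 was lower, at -0.45 (0.16, -0.80 to -0.09, adjusted p = 0.833 from edgeR). The groups did not overlap for 4 of the 9, Cdkn1a, Bbc3, Mdm2 and Phlda3, against 21.6% of all features. Phlda3 stood at 0.37 (standard error 0.17, adjusted p = 0.889). Without WT replicate 2 or Nrf1 cKO replicate 2 the count of 3 was 0. Germ cell markers had a median of -1.27 in this comparison. All 8 Sertoli cell markers (median 0.53, with 2 at an unadjusted p under 0.05), all 5 endothelial markers (0.50, with 1) and all 7 macrophage markers (0.25, with 0) were above 0, and all 5 red blood cell markers were below it (-0.82, with 0). Their part in the values of the 9 genes was not tested.

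Between dKO and Dnmt3C KO, where Nrf1 deletion was compared in the absence of DNMT3C, 0 of the 9 were called (0% of 20783 features, smallest adjusted p = 0.675) and 0 were at an unadjusted p under 0.05, against 7.18% of all features, with the same counts of 0 from DESeq2. Bbc3 was at 0.10 (95% interval -0.37 to 0.56) and Cdkn1a at 0.11 (-0.54 to 0.76). Mdm2 was also at 0.10 (-0.17 to 0.38), and Trp53 was at 0.20 (-0.05 to 0.46). The 1 gene whose groups did not overlap was Bax, at -0.22 (-0.45 to 0.01, adjusted p = 0.675 from edgeR), where 13.4% of all features had such groups. Without dKO replicate 1, 2 of the 9 were at an unadjusted p under 0.05. The germ cell markers were all 12 below 0, with a median of -0.84, as were all 7 macrophage markers (-0.49), all 4 peritubular markers (-0.29) and 5 of 6 Leydig cell markers (-0.20), with 7, 1, 1 and 2 of them at an unadjusted p under 0.05. Of the 8 Sertoli cell markers 6 were above 0 (median 0.31), 2 of them at an unadjusted p under 0.05. The part of these cell types in the Bax value was not tested.

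The loss of DNMT3C was compared in the same ways. Over both Nrf1 states, 0 of the 9 genes were called (0% of 22594 features), 0 were at an unadjusted p under 0.05 in edgeR, where 2.92% of all features were, and 0 in DESeq2. None had groups without overlap, against 0.221% of all features. Differences were small: Bax and Trp53inp1 stood at 0.15 each (95% intervals -0.06 to 0.36 and -0.12 to 0.41), Ccng1 at 0.13, Phlda3 at 0.12 and Mdm2 at 0.05 (-0.15 to 0.25). Trp53 was at -0.01 (-0.22 to 0.20), Bbc3 at -0.04 and Cdkn1a at -0.10 (-0.58 to 0.37). No interval among the 9 reached beyond 1.54-fold in RNA of the whole testis. Their median was 0.05 (-0.01 to 0.12 with 1 library left out, the ends without dKO replicates 2 and 1), and that of all features was 0.00. In the same contrast 10 of the 12 germ cell markers were above 0 (median 0.44, with 3 at an unadjusted p under 0.05), and all 5 red blood cell markers were below 0 (median -0.95, with 2 at an unadjusted p under 0.05), as were all 5 endothelial markers (-0.34, with 1). Their part in the values of the 9 genes was not tested.

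Between Dnmt3C KO and WT, 0 of the 9 were called (0% of 21664 features, smallest adjusted p = 0.893), and 1, Bax, was at an unadjusted p under 0.05, against 5.41% of all features. DESeq2 called 0 and likewise had 1. Bax was higher by 0.31 (standard error 0.13, 95% interval 0.02 to 0.60, adjusted p = 0.893 from edgeR). Phlda3 stood at 0.31 too (standard error 0.14, adjusted p = 0.893), and Mdm2 was at -0.22 (-0.52 to 0.08). These 3 genes had groups without overlap, against 21.2% of all features. The count of 1 was 2 without WT replicate 2 and 0 without Dnmt3C KO replicate 2 or 3. Red blood cell markers were lower here, all 5 at an unadjusted p under 0.05 with a median of -1.24, and their summed level was 653 and 2110 CPM in the WT libraries against 548 to 780 in Dnmt3C KO. All 7 macrophage markers were above 0 (median 0.39), and 2 of them, 2 of 6 Leydig cell markers and 2 of 12 germ cell markers were higher at an unadjusted p under 0.05. The part of these cell types in the differences was not tested.

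Between dKO and Nrf1 cKO, where DNMT3C was lost in the absence of NRF1, 0 of the 9 were called (0% of 20381 features, smallest adjusted p = 1.00). At an unadjusted p under 0.05 stood 1, Mdm2, against 2.81% of all features, and 0 with DESeq2, which also called none. Mdm2 was higher in dKO by 0.33 (standard error 0.14, 95% interval 0.02 to 0.64, adjusted p = 1.00 from edgeR). Its p was above 0.05 without Nrf1 cKO replicate 2, dKO replicate 1 or dKO replicate 2. Groups did not overlap for Mdm2 and for Bbc3, which was at -0.32 (-0.81 to 0.17), against 7.45% of all features. In the same comparison 11 of the 12 germ cell markers stood above 0, with a median of 0.59, and 2 of them, Dazl and Ddx4, were at an unadjusted p under 0.05. All markers of Sertoli cells (median -0.16), macrophages (-0.31), endothelial cells (-0.64, with 1 at an unadjusted p under 0.05), peritubular cells (-0.17) and red blood cells (-0.69) were below 0, as were 5 of 6 of Leydig cells (-0.33). Their part in the Mdm2 and Bbc3 values was not tested.

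Between dKO and WT, 0 of the 9 were called (0% of 21488 features), and 0 were at an unadjusted p under 0.05 with edgeR or DESeq2, against 1.74% of all features with edgeR. Phlda3 was at 0.32 (95% interval -0.02 to 0.66) and Bax at 0.09 (-0.24 to 0.42), and these 2 had groups without overlap, against 13.5% of all features. The 5 red blood cell markers were again all lower at an unadjusted p under 0.05, with a median of -1.48. All 12 germ cell markers were below 0 (median -0.60, with 2 at an unadjusted p under 0.05) and all 8 Sertoli cell markers above it (median 0.36), and the part of these cell types was not tested. The comparisons with WT share the same 2 WT libraries, so the like values of Phlda3 in them, 0.31, 0.37 and 0.32, are not independent of one another.

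The interaction tested whether the effect of DNMT3C loss differed with Nrf1 deleted. Mdm2 had the smallest p of the 9, with a difference of 0.55 between the log2 fold changes (standard error 0.18, 95% interval 0.15 to 0.94, adjusted p = 0.895 from edgeR). It was the 1 gene of the 9 at an unadjusted p under 0.05, where 5.55% of all features were, and DESeq2 also had 1. No feature was called by either tool (0% of 22594 with edgeR). Leaving out single libraries gave values of 0.41 to 0.62 for Mdm2, and it was 0.52 with the germ cell score as a covariate. Several marker lists lay wholly on one side of 0 in the interaction: all 7 of macrophages (median -0.72), all 6 of Leydig cells (-0.50), all 5 of endothelial cells (-0.62) and all 4 of peritubular cells (-0.41) were below it, and all 5 of red blood cells (0.59) above it. Germ cell markers (9 above, 3 below) and Sertoli cell markers (2 above, 6 below) lay on both sides. Of these, 1 macrophage and 1 Leydig cell marker were at an unadjusted p under 0.05, and their part in the values of the 9 genes was not tested. Cdkn1a was at -0.64 (-1.60 to 0.31), Bbc3 at -0.55 (-1.21 to 0.10), Phlda3 at -0.36 (-0.75 to 0.03) and Bax at -0.32 (-0.74 to 0.10). Trp53 was at -0.04 (-0.47 to 0.38). Leaving out Dnmt3C KO replicate 1, Nrf1 cKO replicate 1, Nrf1 cKO replicate 3 or dKO replicate 2 gave 2 genes at an unadjusted p under 0.05.

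The wider p53 and apoptosis pathway was followed with 4 lists of 75 genes, of which 73 were tested. None was called in any of the 8 comparisons. With Nrf1 deleted, 10 of the 73 (13.7%) were at an unadjusted p under 0.05, 5 higher and 5 lower, where 8.53% of all features were, and their median was 0.06. With DNMT3C lost, 2 of the 73 (2.74%) were, against 2.92% of all features, and in the interaction 9 (12.3%), against 5.55%. Of the regulators of p53, Cdkn2a, which encodes the MDM2 inhibitor p19ARF and the CDK inhibitor p16INK4a, had the smallest p of the 73 with Nrf1 deleted.

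Cdkn2a had 9.04 and 8.43 CPM in WT, 12.3, 9.66 and 8.74 in Dnmt3C KO, 4.87, 3.58 and 2.89 in the Nrf1 cKO libraries and 6.27, 5.91 and 3.41 in those of dKO. All 6 libraries with Nrf1 deleted lay below all 5 with Nrf1 intact, a difference of -1.10 (standard error 0.20, 95% interval -1.52 to -0.67, adjusted p = 0.2 from edgeR). That is of the size of the germ cell marker median of -1.05, and whether Cdkn2a followed germ cell number was not tested. Atm, the DNA damage kinase that phosphorylates p53, had 83.6 and 83.6 CPM in WT, 70.0, 67.2 and 71.6 in Dnmt3C KO, 52.3, 41.0 and 56.0 in the Nrf1 cKO libraries and 68.2, 61.4 and 66.1 in those of dKO. It stood at -0.42 with Nrf1 deleted (standard error 0.09, adjusted p = 0.25 from edgeR) and at 0.67 in the interaction (0.19, adjusted p = 0.895), where the related kinase gene Atr stood at 0.59 (0.20, adjusted p = 0.895). Of 19 regulators tested, these 2, Atm and Cdkn2a, were lower and 0 higher at an unadjusted p under 0.05 with Nrf1 deleted. With DNMT3C lost none was, and the smallest p were those of Cdkn2a, at 0.34, and Trp53bp1, at -0.14.

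Among 23 other p53 target genes, Tigar, a regulator of glycolysis, was at -0.37 with Nrf1 deleted (standard error 0.12, adjusted p = 0.453 from edgeR), between 12.0 and 17.6 CPM in libraries with Nrf1 intact and 9.89 to 12.6 without it. Btg2, an antiproliferative gene, was at 0.19 (standard error 0.08, adjusted p = 0.535), and Steap3, a metalloreductase gene, at 0.27 (0.11, adjusted p = 0.572). These were the 3 of the 23 at an unadjusted p under 0.05, and 18 of the 23 were above 0. Plk2 was at -0.36 (0.15) with DNMT3C lost, the 1 of the 23 there, and Tigar next at 0.17 (0.12), both with an adjusted p of 1.00. In the interaction Pidd1 was at 0.76 (standard error 0.24) and Ephx1 at -0.71 (0.26), both with an adjusted p of 0.895.

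Of the 12 other BCL2 family genes, Bak1, the partner of Bax in opening the mitochondrial membrane, was at 0.32 with Nrf1 deleted (standard error 0.10, adjusted p = 0.436 from edgeR), with 37.9 ± 2.38 CPM in WT (n = 2, SD) and 41.1 ± 6.58 in Dnmt3C KO, 52.3 ± 1.38 in Nrf1 cKO and 46.7 ± 6.39 in dKO (n = 3 each, SD). Its Dnmt3C KO and dKO libraries overlapped. Bik, a BH3-only gene, was at -0.48 (0.22, adjusted p = 0.577) with Nrf1 deleted and at 0.49 (0.22, adjusted p = 1.00) with DNMT3C lost, where Bid followed at 0.15 (0.10). In the interaction Bad was at -0.50 (0.23, adjusted p = 0.895) and Bcl2 at 0.50 (0.24, adjusted p = 0.903). Of 19 caspase, apoptosome and death receptor genes tested, Casp6, an executioner caspase gene, was at 0.20 (standard error 0.07, adjusted p = 0.507) and Tnfrsf1a, the TNF receptor gene, at 0.27 (0.10, adjusted p = 0.507) with Nrf1 deleted. Endog, a mitochondrial nuclease gene, was at -0.43 (0.17, adjusted p = 0.535), and no other gene of that list was at an unadjusted p under 0.05. With DNMT3C lost none was, with Endog at 0.27 (0.17). Tradd, at -0.85 (0.31, adjusted p = 0.895), and Endog, at -0.76 (0.33, adjusted p = 0.895), led the interaction.

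**Figure D4:**
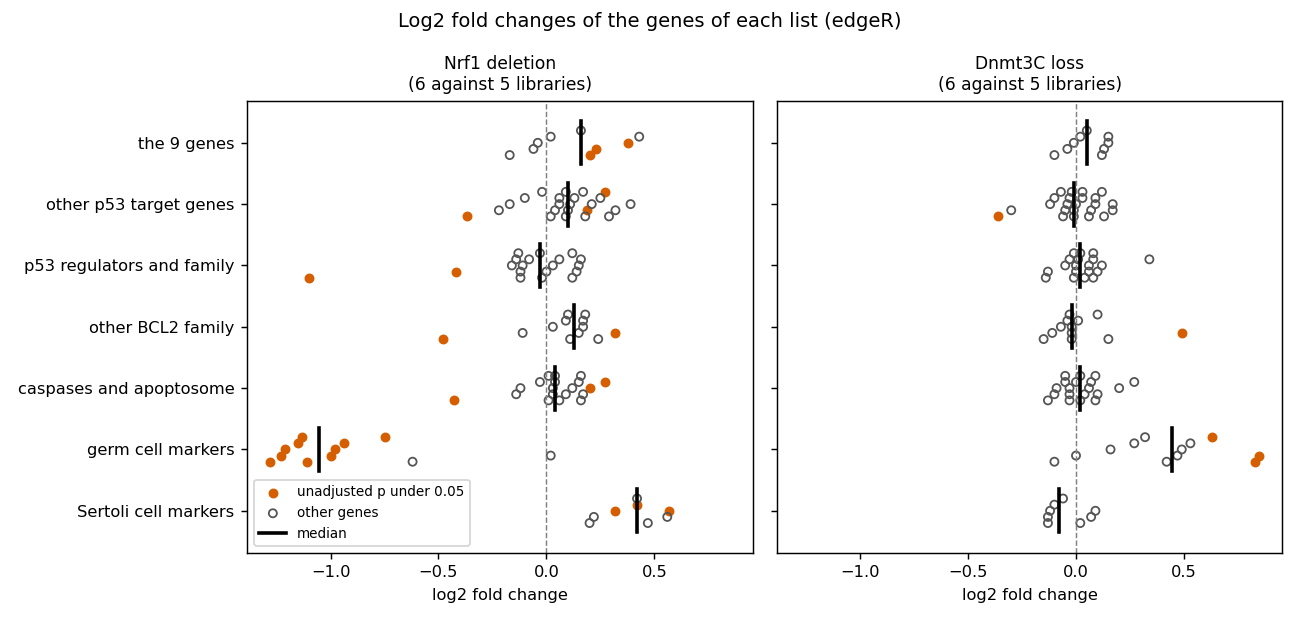
Log2 fold changes of the genes of each list (horizontal axes, the same in both panels) for Nrf1 deletion and for Dnmt3C loss; filled points have an unadjusted p under 0.05 and the black bar is the median of the list. The p53 and apoptosis lists centre between -0.03 and 0.16 in the first panel, and the germ cell markers at -1.05 stand apart from them.

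Across the 11 libraries, the 9 genes did not vary as 1 group. Pearson's r of log2 CPM between Trp53 and Bbc3 was 0.84, between Bbc3 and Phlda3 0.76 and between Cdkn1a and Bbc3 0.72, while Mdm2 and Bbc3 were at -0.54 and Bbc3 and Trp53inp1 at -0.56. The 11 points share their genotypes and library scaling, and these values are a description. Of 21656 genes past the filter, those most like each of the 9 by the same measure were B4galt1 (0.966), Lasp1 (0.957) and Rnpep (0.953) for Trp53, and Cenpf (0.964), Rad54b (0.941) and Mms22l (0.938) for Mdm2. Nearest to Cdkn1a were Stk25, Plekhf1 and Camk1 (0.914 to 0.921), to Ccng1 Hibch, Dram2 and Vhl (0.889 to 0.898), and to Phlda3 Stub1, Dctn2 and Gnb2 (0.923 to 0.938). Zfp977, Golga1 and Mettl4 were nearest to Trp53inp1 (0.934 to 0.951) and Atp6v0e2, F8a and Tarbp2 to Bax (0.921 to 0.933). For Bbc3 they were Dlst, Jund and Mogs (0.948 to 0.964), and for Pmaip1 Gm47275, Robo2 and Hes1 (0.931 to 0.943).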

How the data were processed

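Poly-A RNA of P5 testes was sequenced by the authors from stranded libraries, aligned with STAR 2.7.3a to GRCm38 and counted on genes and transposable element (TE) subfamilies with TEtranscripts; 1 replicate per genotype had been excluded for low RNA quality. The authors deposited raw counts, 1 table for each pair of genotypes, beside their own DESeq2 1.44.0 comparison. In those tables the log2 fold changes, p-values, mean normalized counts and test statistics (scores here) are the authors' and were not used, nor was the deposited TPM table, which lists TE copies. The counts of a library were equal in all its tables, which were joined into 33188 genes and 1088 TE subfamilies. Depth was 26063590 to 39365841 counts, which sets the counting error only. Gene positions and exonic lengths are of GENCODE M21, an earlier release than the authors used.

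Libraries were grouped by their labels. In edgeR 4.0.16 (R 4.3.3), filterByExpr, TMM scaling and the quasi-likelihood test were applied to the libraries of 2 genotypes, or to all 11 for the effects of each deletion and their interaction, with p-values adjusted by Benjamini-Hochberg over all features, TE subfamilies included, at a threshold of 0.01. Intervals and standard errors come from that test, and log2 CPM use a prior count of 1. The fits were tested on simulated data. Alternatives were DESeq2 1.42.0 and its size factors, no filter, a threshold of 0.05, genes only, a replicate block, all 4 genotypes in one fit, the germ cell score as covariate, and each library left out. The replicate numbers did not pair libraries (r between -0.233 and 0.222 over 15 same-numbered pairs). Replicate numbers are those of the sample titles; the count columns of Dnmt3C KO replicate 3 and dKO replicate 3 carry other numbers, so their pairs, in this check and in the replicate block, match by title only.

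The 9 genes, the pathway and marker lists and the tests were chosen with earlier results of these data known. Named were all 9 genes, any other pathway gene past the threshold, the 2 with the smallest p of each list in each comparison over 11 libraries, and the 3 genes most like each of the 9. Steap3, and Endog under Nrf1 deletion, were named after their values were seen, and 1 gene that the rule names is not reported here. Marker lists covered germ, Sertoli, Leydig, peritubular, endothelial, red blood cells and macrophages.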

Additional observations from a re-analysis of the deposited data

Results flagged for a closer look

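For 2 of the 9 genes the effect of DNMT3C loss ran in opposite directions with Nrf1 intact and with Nrf1 deleted, in every library relative to the mean of its controls, a pattern that 11.7% of all 22594 features showed. For the effect of Nrf1 deletion, 0 of the 9 showed it, against 7.46% of all features. All 3 Dnmt3C KO libraries were below WT for Mdm2 and all 3 dKO libraries were above Nrf1 cKO. The difference between the effects was tested as an interaction in edgeR and was 0.55 on the log2 scale (standard error 0.18, adjusted p = 0.895). Bbc3 ran the other way, above the WT mean in Dnmt3C KO and below Nrf1 cKO in dKO, with a difference of -0.55 (standard error 0.30, adjusted p = 0.903 from edgeR). Neither passed the adjusted threshold. The 2 genes are described here because of these opposite directions, so their signs are no further evidence.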

How the results depend on the processing

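No alternative gave a call among the 9 genes: in 116 alternative fits the smallest adjusted p of any of them was 0.289. These include the 8 main fits read at a threshold of 0.05, whose fold changes are the same by construction. Of 1044 log2 fold changes, 63 changed sign after rounding, 55 of these when 1 library was left out, and 981 did not. With the replicate block, signs changed between Dnmt3C KO and WT for Trp53 (-0.01), Cdkn1a (-0.01) and Pmaip1 (-0.18), between dKO and WT for Pmaip1 (-0.18) and between dKO and Nrf1 cKO for Pmaip1 (0.07). The replicate block also took the 3 genes at an unadjusted p under 0.05 for Nrf1 deletion to 0, while over all features it gave 131 calls between Dnmt3C KO and WT, 87 between Nrf1 cKO and WT and 21 between dKO and WT. With the germ cell score as covariate they changed for Cdkn1a (-0.18) and Ccng1 (-0.09) under Nrf1 deletion and for Cdkn1a (0.10) under DNMT3C loss. The cause was not tested.

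Leaving out 1 library gave values of both signs for small differences. Between Dnmt3C KO and WT these were Trp53 (-0.15 to 0.22), Pmaip1 (-0.18 to 0.21) and Trp53inp1 (-0.15 to 0.16). Against WT, Pmaip1 ranged from -0.46 to 0.36 in Nrf1 cKO and from -0.12 to 0.28 in dKO, and Trp53inp1 from -0.05 to 0.27 in dKO. Between dKO and Nrf1 cKO they were Trp53 (-0.11 to 0.04), Bax (-0.14 to 0.09), Pmaip1 (-0.33 to 0.48), Ccng1 (-0.08 to 0.15) and Phlda3 (-0.11 to 0.04). Between dKO and Dnmt3C KO they were Cdkn1a (-0.15 to 0.33), Mdm2 (-0.03 to 0.18), Pmaip1 (-0.20 to 0.22), Ccng1 (-0.05 to 0.16) and Phlda3 (-0.04 to 0.06). For Nrf1 deletion they were Bax (-0.11 to 0.01), Pmaip1 (-0.23 to 0.17) and Trp53inp1 (-0.11 to 0.04), and for DNMT3C loss Trp53 (-0.10 to 0.09), Cdkn1a (-0.23 to 0.02), Mdm2 (-0.01 to 0.09), Bbc3 (-0.12 to 0.05) and Pmaip1 (-0.14 to 0.27). In the interaction they were Trp53 (-0.26 to 0.12), Pmaip1 (-0.41 to 0.42) and Ccng1 (-0.38 to 0.01). Where WT was left with 1 library, it was assumed to vary like the other groups.

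Over all features, edgeR called 0 in 7 comparisons and 1 for Nrf1 deletion. DESeq2 called 25 between Dnmt3C KO and WT, 26 between Nrf1 cKO and WT, 4 between dKO and WT, 8 between dKO and Nrf1 cKO, 19 between dKO and Dnmt3C KO, 55 for Nrf1 deletion, 32 for DNMT3C loss and 0 for the interaction. With no filter on low counts the counts, in that order, were 158, 138, 13, 5, 3, 7, 17 and 0. No setting moved the median of all features by more than 0.05. Depth limits Pmaip1, Cdkn1a and Bbc3 most, with as few as 86 counts in a library, and WT has 2 libraries.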

Other observations

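Immediate early genes, which cells switch on within minutes of stress or tissue handling, were listed beside the p53 pathway. With Nrf1 deleted all 8 stood above 0, with a median of 0.21, and 1 was at an unadjusted p under 0.05. That gene was Fosb, at 1.33 (standard error 0.55, 95% interval 0.15 to 2.51, adjusted p = 0.553 from edgeR), from a WT level of 0.393 ± 0.0491 CPM (SD, n = 2). Its level was 0.979 ± 0.479 CPM in Dnmt3C KO, 0.758 ± 0.325 in Nrf1 cKO and 3.21 ± 3.42 in dKO (SD, n = 3 each), where the SD exceeded the mean and the highest library had 7.1 CPM. Fosb was also at 1.68 with DNMT3C lost (0.55, adjusted p = 1.00 from edgeR), followed by Junb at -0.38 (0.20, adjusted p = 1.00). Jun was at 0.23 with Nrf1 deleted (0.16, adjusted p = 0.686). In the interaction Atf3 was at -0.90 (0.45, adjusted p = 0.903) and Ier2 at -0.41 (0.25, adjusted p = 0.906). Against WT, the median of the 8 immediate early genes was 0.38 in Nrf1 cKO (7 of 8 above 0), 0.30 in Dnmt3C KO (6 of 8) and 0.26 in dKO (7 of 8). Their part in the values of the 9 genes was not tested.

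Marker scores of other cell types are given here, again as mean log2 CPM. Leydig cell markers averaged between 6.87 (dKO) and 7.21 (Dnmt3C KO), peritubular cell markers between 6.77 (WT) and 7.11 (Dnmt3C KO), endothelial markers between 4.56 (dKO) and 5.19 (Nrf1 cKO) and macrophage markers between 4.16 (dKO) and 4.66 (Dnmt3C KO). Red blood cell markers spread widely, at 6.48 and 8.21 in the WT libraries and at 6.38 ± 0.29 in Dnmt3C KO, 6.31 ± 1.37 in Nrf1 cKO and 5.96 ± 0.67 in dKO (SD, n = 3 each).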
